A study of Drosophila melanogaster with 8 samples.

Results

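Seminal fluid protein genes were followed through 8 Malpighian tubule libraries of Drosophila melanogaster. Genes were taken by their FlyBase symbol, namely those starting with Acp (accessory gland protein), Sfp (seminal fluid protein) or Met75C, together with Dup99B and SP. The rule found 52 of the 13942 genes listed, 51 through their gene ID and 1 through its CG number. For 3 of the 52 the name stands for something else: Acp1 and Acp65Aa are adult cuticle proteins and Acph-1 is an acid phosphatase. The other 49 carry the names of seminal proteins. Of these, 47 had at least 1 read, 37 had the 12 reads over all libraries that were required for a test, and 13 had 100 or more. Counts below refer to the 49 or to the 37 tested.

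Malpighian tubules excrete waste and regulate salt and water, and they are not part of the reproductive tract. In male flies, seminal proteins are made mainly by the accessory glands and in smaller part by the ejaculatory duct and bulb, and they pass to the female with the sperm at mating. Inside the female they raise egg laying, lower her readiness to mate again and help sperm to be stored. The best known is sex peptide, the product of SP, which binds to sperm and acts on a receptor in the female.

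The groups were African females, African males, European females and European males, each with 2 replicates labeled as such. The African flies came from Zimbabwe and the European flies from the Netherlands, and each library pooled tubules from several isofemale lines (lines founded by single wild females). According to the labels, adults were 2 to 4 days old and were kept at 22° with 14 h of light and 10 h of darkness. The paper gives another age than the labels. The mating status of the flies is not given in the sources used here, and pools of lines do not show the spread between individual flies.

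The libraries held 19528634 to 27099855 reads. Levels are in RPKM, which are reads scaled to transcript length and library size. All 7 principal cell genes and all 6 stellate cell genes listed as markers of tubule cells were found, at summed levels of 4949 to 8020 RPKM and 378 to 494 RPKM. The yolk protein genes followed the labeled sex. Their sums were 834 to 1660 RPKM in the female and 6.98 to 20.4 RPKM in the male libraries. Eggshell genes, also female markers, did not fully separate the sexes. The 11 found summed to 12.7 to 99.2 RPKM in females. They reached 35.4 RPKM in the first African male library, against 3.76 to 4.85 RPKM in the other males. For the seminal genes, the first European female library stood apart from the other female libraries, and for 7 midgut genes the first African male library did, at 1866 RPKM against 29.1 to 117 RPKM in the 7 others.

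Seminal protein RNA was rare in every library and more abundant in each male library than in any female library. The summed level of the 49 genes was 11.0 and 9.20 RPKM in African females, 44.2 and 10.4 RPKM in European females, 172 and 302 RPKM in African males and 125 and 83.0 RPKM in European males (replicates 1 and 2). The male and female ranges did not overlap, and the highest female value was that of the first European library. In RPM, reads scaled to library size alone, seminal RNA made up 64.6 (exact 95% Clopper-Pearson interval 61.3 to 68.0) and 82.2 (78.6 to 85.9) RPM in African males and 46.8 (43.9 to 49.9) and 27.4 (25.3 to 29.6) RPM in European males. The first European female library held 21.4 RPM (19.4 to 23.6) and the other females 4.35 to 4.44 RPM, and these intervals cover counting error only. Between 40 and 44 of the 49 genes had a read in each male library and between 28 and 37 in each female library.

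Much of the male signal came from a single gene, Met75Ca. It accounted for 21.2%, 60.8%, 26.0% and 35.8% of the seminal reads in African male replicates 1 and 2 and European male replicates 1 and 2. Without it, the summed level of the remaining 48 genes was 115 and 96.0 RPKM in African males, 75.2 and 42.5 RPKM in European males, 43.6 RPKM in the first European female library and 8.27 to 10.8 RPKM in the other 3. The second European male library and the first European female library then stood side by side.

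**Figure D1:**
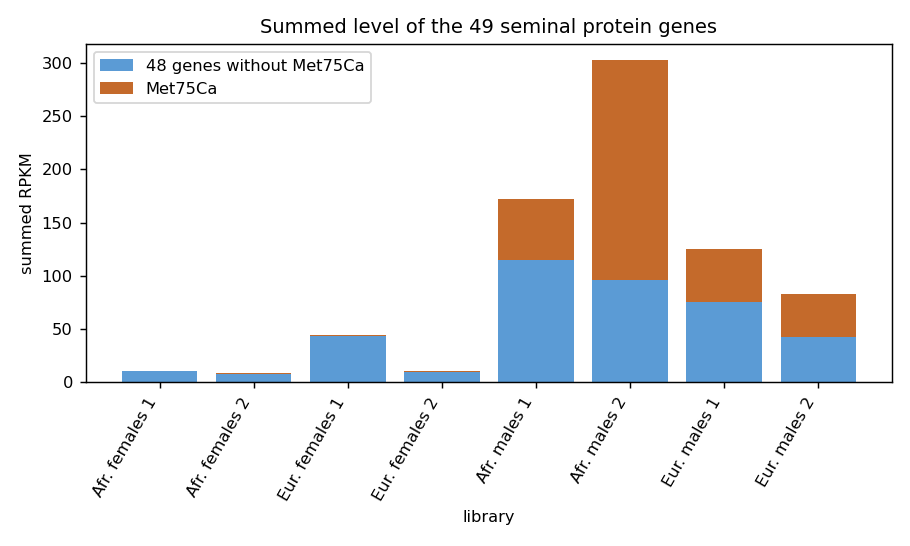
Summed RPKM of the 49 seminal protein genes in each library, with Met75Ca (upper segment) stacked on the other 48 genes. The bars of the males reach 83.0 to 302 RPKM and the first European female library reaches 44.2 RPKM, against 9.20 to 11.0 RPKM in the other females. Each bar is 1 library and has no error bar.

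Sex was tested across all genes with population in the model, on log2(RPKM + 0.1) after scaling by TMM factors (which correct for library composition). Of the 37 seminal genes, 9 were higher in males and 0 were higher in females at an adjusted p of 0.05 (limma with Benjamini-Hochberg adjustment over 12580 genes). Of all genes tested, 7.62% were higher in males and 4.12% in females. At an unadjusted p of 0.05 the counts of seminal genes were 14 and 0 (16.3% and 10.9% of all genes), and with voom on the reads 6 and 0 passed the adjusted threshold (7.83% and 4.45% of all genes). The median log2 fold change of male over female was 1.52 for the 37 genes and 0.01 for all genes, and 34 of the 37 had a positive value. The minimum of reads for a test was set over both sexes together, so genes read mainly in males could pass it. In the female libraries alone 22 seminal genes reached this minimum, and in the male libraries alone 30. The median therefore depends on the genes kept. With a minimum of 1 read it was 1.07 (0.02 for all genes), and 43 of 47 values were positive. The same 9 genes were the ones in which all 4 male libraries lay above all 4 female libraries, which held for 7.37% of all genes.

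Met75Ca was the most abundant seminal gene. It was at 0.211 and 0.929 RPKM in African females, 0.635 and 0.457 RPKM in European females, 56.6 and 206 RPKM in African males and 50.3 and 40.5 RPKM in European males. The 4 male libraries lay far above the females, and the second African male library was several times higher than the other males. The log2 fold change was 6.88 ± 0.57 (SE, adjusted p = 0.0015, limma, 4 libraries per sex). The pooled reads gave a male level 158 times that of females (95% counting interval 92.0 to 297), and 84.7 times (49.3 to 160) without the second African male library, which held 60.7% of the male reads. Met75Cb, its direct neighbor in the genome and a gene of nearly the same length, had 0 reads in all 8 libraries. The genes are related copies and the way shared reads were divided is not given, so the value of Met75Ca may hold reads of both.

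Dup99B encodes a peptide of the ejaculatory duct that is related to sex peptide and acts in a similar manner on the female. It was at 0.330 and 0.121 RPKM in African females, at 0 in both European female libraries, at 9.48 and 43.9 RPKM in African males and at 4.33 and 4.57 RPKM in European males. A count of 0 allows up to 0.496 and 0.357 RPKM in the European female libraries. As for Met75Ca, the males did not overlap the females and the second African male library was highest. The log2 fold change was 5.79 ± 0.49 (SE, adjusted p = 0.0015, limma), and pooled reads gave a ratio of 156 with a counting interval of 53.2 to 762. Without the second African male library, which held 72.2% of the male reads, the ratio was 59.4 (19.9 to 292). With voom, the adjusted p rose to 0.067 for Met75Ca, 0.077 for Dup99B and 0.069 for Acp24A4, the genes among the 9 that it did not call.

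Acp54A1 was at 0.349 and 0 RPKM in African females and 0.350 and 0.252 RPKM in European females. In males it was at 20.5 and 22.8 RPKM (African) and 4.92 and 7.04 RPKM (European). Its African male replicates were nearly even, at a ratio of 1.11, and both were above both European male libraries. Its log2 fold change was 5.32 ± 0.68 (SE, adjusted p = 0.0053, limma). Sfp93F had 0 reads in all 4 female libraries and 3.73, 6.52, 1.96 and 1.05 RPKM in African male replicates 1 and 2 and European male replicates 1 and 2. Set against a floor of 3 reads over the female libraries together, it was at least 34.6-fold higher in males, and its fitted adjusted p was 0.0018 (limma).

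The other 5 genes called had lower levels or smaller differences. Sfp87B was at 4.10 and 2.08 RPKM in African males, 1.76 and 3.91 RPKM in European males and 0 to 0.466 RPKM in females, a log2 difference of 3.45 ± 0.56 (SE, adjusted p = 0.011, limma). Sfp96F was at 0.737 to 1.83 RPKM in males and 0 to 0.305 RPKM in females, with a log2 difference of 2.94 ± 0.39 (SE). Both stayed clear of the female values in each male library, although Sfp96F rests on 23 reads in all. Acp32CD was at 0.485 to 0.953 RPKM in males and 0.115 to 0.289 RPKM in females, and its log2 difference was 1.52 ± 0.26 (SE).

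Sfp60F differed from the rest in having a clear level in females. It was at 2.69 and 1.41 RPKM in African females, 1.80 and 1.85 RPKM in European females, 7.92 and 4.55 RPKM in African males and 3.24 and 5.17 RPKM in European males. The log2 fold change was 1.37 ± 0.27 (SE, adjusted p = 0.019, limma), and the lowest male library was close to the highest female library. Sfp60F lies next to EbpII, an ejaculatory bulb gene. Acp24A4 was at 0.234 to 0.758 RPKM in males and 0 to 0.116 RPKM in females on 30 reads, with an adjusted p of 0.037. With the replicate number as a block its adjusted p was 0.051 and it was no longer called. Acp53Ea, Acp95EF, Sfp33A3 and Sfp77F were called in that fit, at adjusted p of 0.031, 0.033, 0.043 and 0.036 (limma). Of all genes, 949 of 12580 were called higher in males with the block, against 958 without it.

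Single libraries bore on the weaker calls. Without the second European female library the adjusted p was 0.052 for Acp32CD and 0.056 for Sfp60F. Sfp60F was also lost without the first European female library (0.050) and without the second European male library (0.063). Acp24A4 was called only without the second African or the first European male library, and had an adjusted p of 0.056 to 0.10 when any other was left out. The 6 other genes were called with each library left out in turn.

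**Figure D2:**
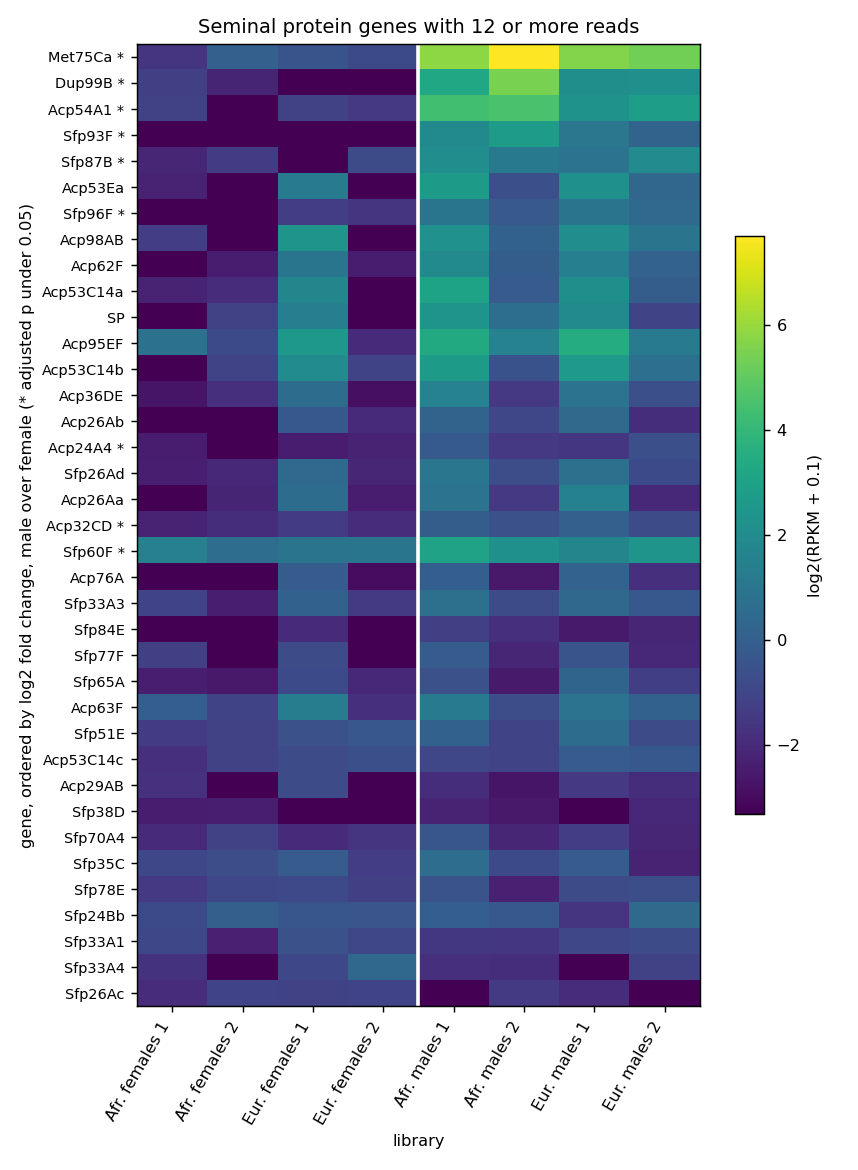
Level of the 37 tested seminal protein genes as log2(RPKM + 0.1), color-coded, in the 4 female libraries (left of the white line) and the 4 male libraries (right). Genes are ordered by the log2 fold change of male over female, and an asterisk marks the 9 with an adjusted p under 0.05. The third column, the first European female library, is brighter than the other females in 24 of the 37 genes.

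The genes best known from the accessory gland were not among the 9. SP was at 0 and 0.336 RPKM in African females, 2.53 and 0 RPKM in European females, 5.12 and 1.48 RPKM in African males and 3.79 and 0.385 RPKM in European males. In each group but African females the first replicate was well above the second, and the first European female library exceeded both second male replicates. The log2 fold change of male over female was 2.62 ± 1.23 (SE, adjusted p = 0.22, limma), so the difference was within the spread between replicates.

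Acp26Aa encodes ovulin, a prohormone-like protein that raises ovulation after mating. Its levels were 0 and 0.117 RPKM in African females, 1.39 and 0.077 RPKM in European females, 1.74 and 0.258 RPKM in African males and 2.75 and 0.135 RPKM in European males. The same libraries were high as for SP, and the log2 difference between the sexes was 1.59 ± 1.05 (SE, adjusted p = 0.39, limma). Its neighbor Acp26Ab followed suit, with 1.05 and 0.409 RPKM in African males, 1.28 and 0.170 RPKM in European males, 0.711 RPKM in the first European female library and 0 to 0.146 RPKM in the others.

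Acp36DE, a large glycoprotein needed for sperm to be stored, had the most reads of this kind. It was at 0.052 and 0.180 RPKM in African females, 1.37 and 0.038 RPKM in European females, 2.82 and 0.254 RPKM in African males and 1.72 and 0.544 RPKM in European males. In African males the second replicate was at 0.090 of the first, and the log2 difference between the sexes was 1.80 ± 0.92 (SE, adjusted p = 0.26, limma). The protease inhibitor Acp62F was at 3.66 and 0.862 RPKM in African males, 2.59 and 0.987 RPKM in European males, 1.82 RPKM in the first European female library and 0 to 0.078 RPKM in the other females. Its adjusted p was 0.099. Acp76A, a serpin-like protein, was at 0.877, 0.069, 0.993 and 0.179 RPKM in the male libraries and 0.810 RPKM in the first European female library, against 0 to 0.031 RPKM in the others.

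Acp53C14a, Acp53C14b, Acp53Ea and Acp53C14c lie side by side. Acp53C14a was at 8.28 and 0.806 RPKM in African males, 4.42 and 0.839 RPKM in European males, 3.22 RPKM in the first European female library and 0 to 0.163 RPKM in the other females. Acp53C14b was at 6.23 and 0.594 RPKM in African males, 5.93 and 1.50 RPKM in European males, 3.90 RPKM in the first European female library and 0 to 0.385 RPKM in the rest. For Acp53Ea the values were 6.37 and 0.544 RPKM, 4.48 and 1.13 RPKM, 2.25 RPKM, and 0 to 0.112 RPKM in the same order. These neighbors thus went together, with adjusted p for sex of 0.21, 0.23 and 0.14, but Acp53C14c did not: it ranged from 0.190 to 0.549 RPKM over the female libraries and from 0.384 to 0.831 RPKM over the male ones.

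Acp95EF followed the same libraries, at 10.1 and 2.89 RPKM in African males, 11.0 and 2.30 RPKM in European males, 1.68 and 0.462 RPKM in African females and 5.69 and 0.152 RPKM in European females. It overlaps the exons of Spase22-23 on the other strand, and since the use of strand in counting is not given, some of its reads may belong to that gene. Sfp78E and Sfp84E overlap other genes in the same way, and no further seminal gene does. Acp98AB was at 5.15 RPKM in the first European female library, above all 4 males (0.977 to 4.67 RPKM). Acp29AB, a lectin that helps to keep sperm in storage, had 21 reads in all and no value above 0.467 RPKM.

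**Figure D3:**
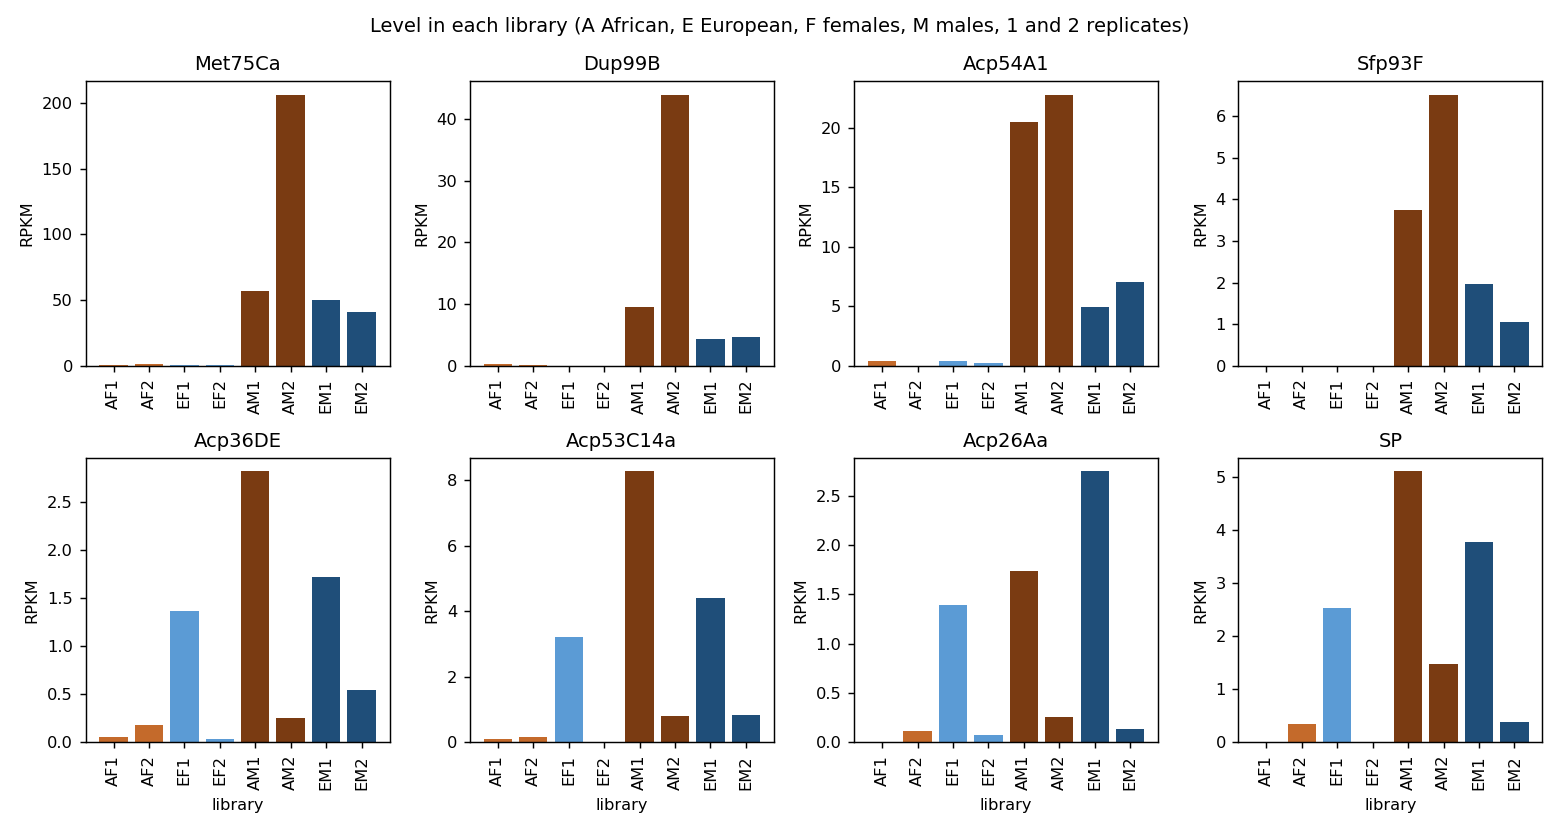
RPKM of 8 seminal protein genes in each library, one bar per library, with a separate linear axis from 0 for each gene. In the upper row (Met75Ca, Dup99B, Acp54A1, Sfp93F) the 4 male libraries hold the high bars and no female library is above 0.929 RPKM. In the lower row (Acp36DE, Acp53C14a, Acp26Aa, SP) the highest bars are those of the first replicates of African males, European males and European females.

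The genes therefore fell into different patterns over the libraries, which was described with ratios between libraries. Among the 12 genes with at least 20 reads in the first European male library, the level in the first European female library was under 0.1 of that male level for 3 genes and over 0.4 for the other 9. The 3 genes were Dup99B, Met75Ca and Acp54A1, at ratios of 0, 0.013 and 0.071. The 9 were Acp53Ea, Acp26Aa, Acp95EF, Sfp60F, Acp53C14b, Acp62F, Acp53C14a, Acp36DE and Acp76A, at 0.503 to 0.816. No gene lay between. With the exception of Sfp60F, the 9 genes were also lower in the second than in the first replicate of males, at ratios of 0.049 to 0.381 in European and 0.078 to 0.285 in African males. For the 3 genes these ratios were 0.805 to 1.43 and 1.11 to 4.63. Keeping genes with many reads in the first European male library favors low ratios to that library. The split, and the setting apart of Sfp60F, were made after the values had been seen, and no test was applied.

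The exact 95% counting intervals of these ratios are given for 4 genes in the African male replicates. The ratio of the second to the first was 4.63 (3.55 to 6.12) for Dup99B and 3.65 (3.22 to 4.15) for Met75Ca, whereas it was 0.090 (0.052 to 0.146) for Acp36DE and 0.097 (0.043 to 0.193) for Acp53C14a.

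**Figure D4:**
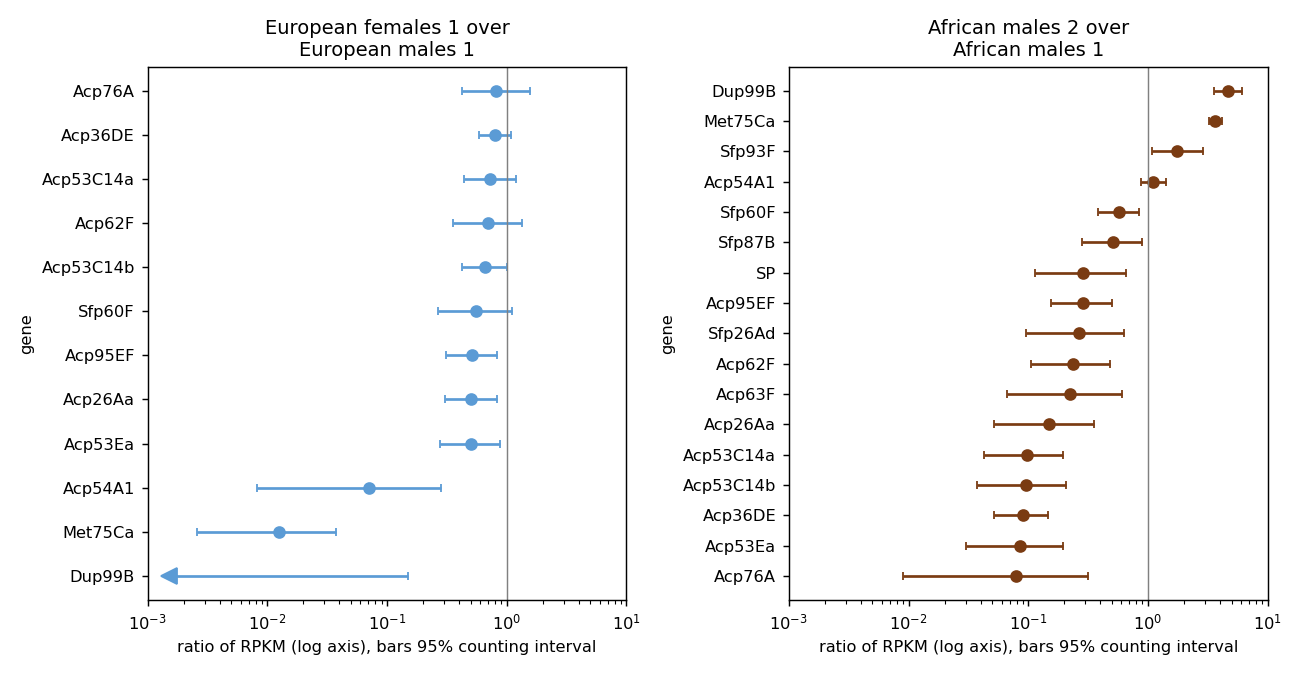
Ratio of RPKM between libraries on a log axis, for the first European female library over the first European male library (left) and for the second over the first African male library (right). Points are genes with at least 20 reads in the library of the denominator, bars are exact 95% counting intervals, and the arrow marks Dup99B with 0 reads in the female library. On the left, 3 genes are below 0.1 and 9 above 0.4. On the right, Dup99B, Met75Ca, Sfp93F and Acp54A1 are above 1. The choice of genes by the denominator favors ratios below 1.

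Over the 37 genes, the first replicate was above the second in 32 genes in African males, 26 in European males, 26 in European females and 14 in African females. The shares of all genes were 66.8%, 53.6%, 48.4% and 55.0%. The first European female library was above the 3 other female libraries in 24 genes, as were 29.5% of all genes. In this library the 32 testis genes summed to 11.0 RPKM, within the 10.7 to 11.2 RPKM of the females and below the 26.9 to 197 RPKM of the males. Of the 4 duct and bulb genes found, Anp (109 reads in all) was at 0.377 RPKM in it. This was above the 0.136 to 0.188 RPKM of the other females and below the lowest male library (2.84 RPKM). EbpIII was at 14.5 RPKM, above the 10.8 to 14.2 RPKM of the other females. EbpII was at 0.144 RPKM, within their 0.106 to 0.208 RPKM, and Ebp at 0.033 RPKM, within their 0.033 to 0.314 RPKM. The 4 spermatheca genes, markers of a sperm storage organ of females, summed to 0.437 RPKM in the first European female library. The sums were 0.264 to 0.604 RPKM in the other female and 0.049 to 0.465 RPKM in the male libraries. With 7 to 31 reads per gene in all, these sums were near the floor and did not separate the sexes. The part of other tissue in the seminal signal of any library was not tested.

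Within a replicate number, males were higher in most of the genes. Both male libraries exceeded both female libraries in 26 of the 37 genes among the first replicates and in 26 among the second, and 22 genes did so in both. For all genes the shares were 21.6% and 17.9%. The share of all genes for both replicate numbers together was not counted, and it cannot exceed 17.9%. SP, Acp26Aa, Acp36DE, Acp62F and Acp53C14a were among the 22. The first European female library was the highest female library in 24 of the 37 genes, among them all those named next. Leaving it out therefore favors calls of higher levels in males, and such calls add no support. When the first European female library was left out, 10 of 35 genes were called higher in males and 23 had an unadjusted p below 0.05, as against 4.42% and 14.7% of all genes in that fit. The calls then included Acp62F (adjusted p = 0.023), Acp98AB (0.032) and Acp53Ea (0.047), while SP was at 0.059 and Acp36DE at 0.11 (limma).

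Sex was also tested within each population, on 4 libraries. In Africa 1 of 27 genes was called higher in males, Sfp93F (adjusted p = 0.030, limma), and 16 had an unadjusted p below 0.05. Of all genes 0.387% were called and 9.33% had such a p. The 27 were kept by their reads in both sexes together. With a minimum of 1 read, 19 of 46 seminal genes had such a p with the higher level in males, as had 1223 of all 13558 genes. The call was lost without either African female library (0.54 and 0.57) and without the second male library (0.061), but in these fits 0 of all genes were called. Sfp93F was also not called with voom, where 43 of all genes were called higher in males. A pseudocount of 1 called Acp54A1 in its place, and 50 of all genes. With the replicate block 4 genes were called, namely Met75Ca, Acp95EF, Sfp93F and Acp98AB. In that fit 81 of all 11632 genes were called higher in males, against 45 without the block. In Europe 5 of 32 were called, Met75Ca, Dup99B, Acp54A1, Sfp93F and Sfp96F, as were 6.12% of all genes. Without the first European female library Dup99B and Met75Ca were called, and without any other European library 0 of the seminal genes and 0 of all genes were, where the remaining single library of a group was taken to vary like the others. With voom Sfp96F was not called (adjusted p = 0.12). With the replicate block Sfp60F and Sfp87B were called in addition, at adjusted p of 0.048 and 0.017 (limma). Sfp33A4 was called higher in females (0.041). Of all 11830 genes, 785 were called higher in males and 323 higher in females with the block, against 724 and 218 without it. The log2 fold changes were 7.62 in Africa and 6.14 in Europe for Met75Ca, 6.11 and 5.47 for Dup99B, and 6.74 and 3.91 for Acp54A1. The sex difference itself did not pass the test for a change between populations in any of the 37 genes (limma, interaction term), a test that 0.0397% of all genes passed with a smaller sex difference in Europe. At an unadjusted p of 0.05, 3 genes (against 3.39% of all genes) had a smaller sex difference in Europe, Acp54A1, Sfp93F and Sfp96F, and voom called 0.

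Between populations, seminal genes moved little against the spread between replicates. Dup99B was higher in Africa, with a log2 fold change of Europe over Africa of -1.96 ± 0.49 (SE, adjusted p = 0.043, limma). Acp53C14c was higher in Europe, by 0.72 ± 0.18 (SE, adjusted p = 0.048). It was at 0.190 and 0.348 RPKM in African females, 0.408 and 0.384 RPKM in African males, 0.476 and 0.549 RPKM in European females and 0.831 and 0.719 RPKM in European males, on 48 reads. Of all genes, 5.39% were higher in Africa and 6.53% in Europe. Neither call held with the replicate block, at adjusted p of 0.056 and 0.057. Dup99B was called without either African male library but not without any other library (0.052 to 0.12), and Acp53C14c only without the second African female library (0.028). Sfp96F was called higher in Europe only without the first African male library, at a log2 fold change of 1.41. With voom Dup99B and Acp53C14c were not called, whereas Acp54A1 and Sfp93F were called higher in Africa, as were 6.38% of all genes.

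Within males, 0 of 30 genes were called (limma), 3 had an unadjusted p below 0.05 with the higher level in Africa and 1 with the higher level in Europe, and voom called 0. With 8.57% and 10.5% of all genes at such a p, these counts are near or below the background. The 3 were Acp54A1 (log2 fold change of Europe over Africa -1.96, adjusted p = 0.055), Sfp93F (-1.81, adjusted p = 0.16) and Dup99B (-2.28, adjusted p = 0.26). In each of them both African male libraries were above both European male libraries. Their choice by the p of this same comparison largely entails this, so it adds no support. With the replicate block Acp54A1 was called, at an adjusted p of 0.023 (limma). Without the first African male library, the African side was the second library alone, which was the highest male library for Dup99B and Met75Ca. The log2 fold change of Europe over Africa was then -3.42 for Dup99B and -2.34 for Met75Ca. In the fit on all male libraries 0.571% of all genes were called higher in African males, and with the replicate block 116 of 11919 were. Within females, 0 of 22 genes were called, 1 (Sfp51E) had an unadjusted p below 0.05 (11.2% of all genes) and voom called 0, while 2.07% of all genes were called higher in European females.

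Seminal genes outside the symbols used here summed to 42.6 to 107 RPKM in the male and 26.5 to 70.7 RPKM in the female libraries, of which BG642312 alone gave 24.0 to 37.1 RPKM in every library. Of 24 such genes found, 22 were tested and 1 was called higher in males, near or below the 7.62% of all genes. It was Obp51a of the odorant-binding protein family. Like Sfp93F it had 0 reads in all females, and like Dup99B it was highest in the second African male library, at 2.87 and 18.7 RPKM in African males against 2.37 and 2.37 RPKM in European males. Mst57Da and Mst57Db, which are expressed in the accessory gland, went with SP instead. Mst57Db was at 32.6 and 5.93 RPKM in African males, 30.1 and 6.61 RPKM in European males, 18.1 RPKM in the first European female library and 0 to 0.576 RPKM in the other females. The genes that sex peptide needs to stay on sperm were low throughout: aqrs, intr, Sems, lectin-46Ca, lectin-46Cb, CG9997, CG17575 and antr had no value above 0.815 RPKM, and none was called. Of 4 transcription factor genes listed for the accessory gland, prd, which the glands need to form, was lowest, at 0.015 to 0.141 RPKM. Abd-B was at 0.316 to 1.26 RPKM, dve at 0.530 to 1.63 RPKM and Hr39 at 9.63 to 19.0 RPKM. None of them was called for sex.

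Markers of neighboring male tissue were higher in males as well. Of 31 testis genes tested, 22 were higher in males and 0 in females, against 7.62% and 4.12% of all genes. Of 4 duct and bulb genes, 3 were higher in males: Anp, an antibacterial peptide of the ejaculatory duct, at 2.84 to 5.32 RPKM in the male libraries against 0.136 to 0.377 RPKM, and the ejaculatory bulb genes EbpII and Ebp. The fourth, EbpIII, was at 10.8 to 23.7 RPKM in all libraries. Across the male libraries the order of the testis sum (70.2 and 26.9 RPKM in African, 141 and 197 RPKM in European replicates) was not that of the seminal sum. Fewer cells of a type and less RNA per cell cannot be told apart in such samples.

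Among the remaining members, Acp63F was at 0.515 to 2.30 RPKM in males and reached 2.43 RPKM in the first European female library. The other 14 tested genes, all with Sfp names, had no value above 1.92 RPKM (Sfp26Ad in the first African male library). Of the 12 seminal genes that were not tested, Met75Cb and Acp33A had 0 reads, which allows up to 0.637 RPKM for Met75Cb and 0.452 RPKM for Acp33A in the shallowest library, and the others had 1 to 11 reads. The 3 genes with other names behaved differently. Acph-1 was at 5.52 to 7.57 RPKM in all libraries with a log2 difference of male over female of -0.09 ± 0.08 (SE), Acp1 was at 0 to 0.767 RPKM (adjusted p for sex 0.19), and Acp65Aa had 4 reads.

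Most of the symbols carry a cytological band, so part of the position of the genes is already in their names. Their median transcript length was 399 bases, against 1677 bases for all genes. Of the 49, 23 were on chromosome arm 2L, 8 on 2R, 11 on 3L and 7 on 3R, and 0 were on the X, which held 2158 of the genes listed. On 2L the share was 46.9%, against 19.0% of all genes. A total of 15 genes were direct neighbors of another seminal gene, among them the Acp53 genes, Acp26Aa with Acp26Ab, and runs of Sfp24 and Sfp33 genes.

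The genes most like the seminal sum over the 8 libraries were listed as a description. For the sum of the 50 genes left without Acp1 and Acp65Aa, which still holds Acph-1, Pearson's r of log2 levels was highest for CG32982 (0.98), CG14245 (0.97) and CG15385 (0.97) among 9771 genes with at least 100 reads, and Obp51a and Anp were among the first 10 (r = 0.94 for both). CG14245 itself was abundant, at 1873 to 3105 RPKM in the female and at 3893 to 5671 RPKM in the male libraries. Without Acph-1, 9 of the 10 genes were again among the first 10, Obp51a being the exception. Without Met75Ca in place of it, only 2 of the 10 were.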

How the data were processed

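RNA was sequenced in 8 libraries, with 2 replicates for each sex and population. The authors mapped reads with NextGenMap to the FlyBase transcriptome (release 5) and assigned those on any isoform to the gene. They deposited RPKM values over the longest transcript. The reference at hand (release 6) was used only for names, exon overlaps and neighbors. Every RPKM above 0 equaled a whole number of reads (100% of values, tolerance 0.01 read), so reads were worked back (19528634 to 27099855 per library).

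RPKM were divided by TMM factors (0.927 to 1.04, after trims of 30% and 5%). Log2 of the result plus 0.1 was fitted with limma 3.58.1 (R 4.3.3) with an intensity trend, for genes with at least 12 reads in the libraries compared, at a false discovery rate of 5%. Fold changes on this scale are understated for low genes. The method was tested on simulated data with the same random spread for every gene and no differences shared within a library. That test therefore does not cover differences between replicates such as those of the seminal genes. Differences between replicates 1 and 2 correlated between groups (r = 0.14 to 0.47, 9785 genes), so equal numbers were treated as pairs in an alternative with a replicate block. Other alternatives were no TMM factors, pseudocounts of 0.01 and 1, minimums of 1 and 100 reads, voom on reads and leaving out each library. P-values measure the spread between these libraries, and intervals and floors of 3 reads cover counting error only.

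Members, gene lists and tests were chosen with earlier results of these data known. The rule named SP, Dup99B, Met75Ca, Met75Cb, Acp26Aa, Acp36DE, Acp1, Acp65Aa, the 10 seminal genes with the most reads and those called for sex, population or interaction. Other genes are named after their values were seen.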

Additional observations from a re-analysis of the deposited data

Results flagged for a closer look

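A library stood apart where its gap to the next of the 4 of its sex, divided by their range, exceeded Dixon's 95% critical value. For values drawn from a single normal distribution, chance gives this in about 1 of 20 groups. Here each group mixes both populations on the RPKM scale, with values at 0, so that rate need not hold. Of 37 groups examined for 17 named genes and 2 sums, 10 had such a library, 8 in females and 2 in males. All 8 in females were the first European library. Its levels were 1.39 RPKM for Acp26Aa (next highest 0.117), 1.37 RPKM for Acp36DE (0.180), 3.22 RPKM for Acp53C14a (0.163), 3.90 RPKM for Acp53C14b (0.385), 2.25 RPKM for Acp53Ea (0.112) and 2.53 RPKM for SP (0.336). The summed level was 44.2 RPKM for the 49 genes (next highest 11.0) and 43.6 RPKM for the 48 without Met75Ca (10.8). The 2 in males were both the second African library, at 206 RPKM for Met75Ca (next highest 56.6) and 43.9 RPKM for Dup99B (9.48). These genes are not independent of each other.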

How the results depend on the processing

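For sex, 6 to 12 seminal genes were higher in males under every alternative and 0 in females, against 9. Leaving out single libraries gave 6 to 10 and the replicate block 12. Fits on 6 libraries, without the first European female and African male libraries (chosen after the data were seen), gave 7. No fold change for sex reversed in the called genes, SP, Acp26Aa, Acp36DE, Acp53C14a, Acp53C14b, Acp53Ea or Acp95EF, nor did that of a gene called in another comparison. Medians over the genes did: within Europe from 1.15 to -0.10 for male over female (log2) without the second European female library, and from 0.37 to -0.14 for Europe over Africa without the first. The population calls were the least stable. The count higher in Europe (1) was 0 with a pseudocount of 0.01, a minimum of 1 or 100 reads, voom, the replicate block and 6 libraries, and 0 to 1 without single libraries. The count higher in Africa (1) was 0 with a pseudocount of 1 and the replicate block, 2 with voom, and 0 to 1 without single libraries. Within Africa the count higher in males (1) was 0 with a minimum of 100 reads and voom, 4 with the replicate block and 0 to 1 without single libraries. Within Europe (5) it was 4 with voom, 1 with a minimum of 100 reads and 0 to 2 without single libraries, and the replicate block called 1 gene higher in females, Sfp33A4. Within males the count higher in Africa (0) was 1 without TMM factors, with a minimum of 100 reads and with the replicate block, and 0 to 2 without single libraries. The causes were not tested. The paired fit changed no call beyond those given here and in the results. With 2 replicates per group and at most 460 reads in any seminal gene but Met75Ca (2009), counting error limits single values, and a gene at 0 in a library is known only to within 3 reads.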
